A study of Homo sapiens with 14 samples.

Results

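The YAP, TAZ and TEAD genes are 10 of the 58440 genes counted in 14 RNA-seq libraries of HEK-293T and Jurkat cells. The rule names them and uses no measured value, although they were chosen with earlier results of these data known. They are the coactivator genes YAP1 and WWTR1 (which encodes TAZ), the transcription factor genes TEAD1, TEAD2, TEAD3 and TEAD4, and the target genes CCN1, CCN2, AMOTL2 and LATS2. Each symbol was looked up in GENCODE release 44 for GRCh38 by the gene identifier without its version, and all 10 were found. HEK-293T is an adherent, epithelial-like line derived from human embryonic kidney that carries the SV40 large T antigen, and Jurkat, grown in suspension, was derived from a human T cell leukemia. The 7 conditions were pure HEK cells (100%), pure Jurkat cells (0% HEK), and mixtures in which 80%, 60%, 50%, 40% or 20% of the cells were HEK and the rest Jurkat. Suspensions of untreated cells were combined before lysis, each condition held 1000000 cells, and 2 libraries were made for each. The records call these libraries technical replicates, so no p below measures the spread between cultures. Between the pure lines p rests on the spread between technical replicates. For the slope over the mixtures it rests also on how far the conditions lie from the fitted line.

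The Hippo pathway is a kinase cascade that restrains organ growth. The kinases encoded by STK3 and STK4 activate LATS1 and LATS2, which phosphorylate YAP and TAZ and hold them in the cytoplasm. Unphosphorylated YAP and TAZ enter the nucleus, where they have no DNA-binding domain of their own and act through the TEAD proteins, which bind DNA and switch on genes such as CCN1 and CCN2. The pathway responds to cell attachment, cell density, polarity and tension of the cytoskeleton, and YAP activity is known to be high in spread, attached cells, while YAP1 is little expressed in many blood cell lineages. The measurements here are of mRNA, and phosphorylation and location of the proteins were not measured.

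The libraries held from 4468822 to 28303668 counts on genes, and 3 counts corresponded to between 0.106 and 0.671 CPM (counts scaled to 1000000 gene counts). The share of counts on synthetic ERCC spike-in RNAs was between 0.674% and 7.65%. The replicate libraries of a condition differed by more than sampling noise in all 7 conditions (chi-square per degree of freedom from 18.4 to 129), and all were kept. All 10 T cell markers were lower and all 5 adherent epithelial-like markers higher in HEK by the edgeR test described below. The T cell markers summed to 6.14 and 2.64 CPM in the pure HEK libraries and to 2527 and 2968 CPM in pure Jurkat. The adherent markers summed to 165 and 183 CPM in pure HEK and to 30.1 and 17.7 CPM in pure Jurkat. Of these, PAX2 had no count in either Jurkat library and CDH2 made up most of the Jurkat sum, at 22.3 CPM ± 8.55 (SD, n = 2). The deposited file names fall into groups of 8 and 6 libraries. Both pure Jurkat libraries were in the first group and both pure HEK libraries in the second, so for these 4 libraries line and file-name group cannot be told apart. Among the mixtures, all libraries at 20% and 40% HEK were in the first group and both at 80% in the second. Only at 50% and 60% HEK were the replicates divided between the groups.

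The first comparison asked how the coactivators, factors and targets differ between the lines when each was sequenced alone. YAP1, WWTR1, TEAD1, TEAD2, TEAD4 and CCN1 were higher in HEK, by between 1.98 and 7.53 on the log2 scale. TEAD3, AMOTL2 and LATS2 did not pass the test, and CCN2 had too few counts to be tested. YAP1, TEAD2, TEAD4 and CCN1 had at most 4 counts over both Jurkat libraries and passed the filter on low counts through HEK alone. WWTR1 and AMOTL2, with 12.6 and 9.15 expected counts over both Jurkat libraries, would also not have passed on the Jurkat libraries alone. The counts and the median of the members below rest mostly on these genes. Of the 9 members tested by edgeR's quasi-likelihood test at a Benjamini-Hochberg adjusted p of 0.05, 6 were higher in HEK and 0 were higher in Jurkat. At an unadjusted p of 0.05 the numbers were 8 and 0, and with DESeq2 they were 7 and 0. Among all 15794 genes tested by edgeR at the adjusted p, 24.2% were higher in HEK and 19.0% higher in Jurkat. With DESeq2, 3181 of all 15794 genes were higher in HEK and 2940 higher in Jurkat. The shares of all genes at the unadjusted p were not counted, so the 8 and 0 have no such background. Both HEK libraries lay above both Jurkat libraries for 8 of the 9 members, as they did for 47.2% of all genes tested. The median log2 fold change was 3.07 over the 9 members and 0.07 over all genes. These 6 were also called higher in HEK with DESeq2, gene totals and spike-in scaling, but 4 of them were called without HEK replicate 1 or without HEK replicate 2, and 0 passed with Bonferroni adjustment, which left 22 of all genes higher in HEK. Spike-in scaling called 14616 of all 15794 genes higher in HEK and 509 higher in Jurkat, so a call under it does not set a member apart. As each library is a bulk sample, fewer cells expressing a gene and less RNA per cell cannot be told apart.

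**Figure D1:**
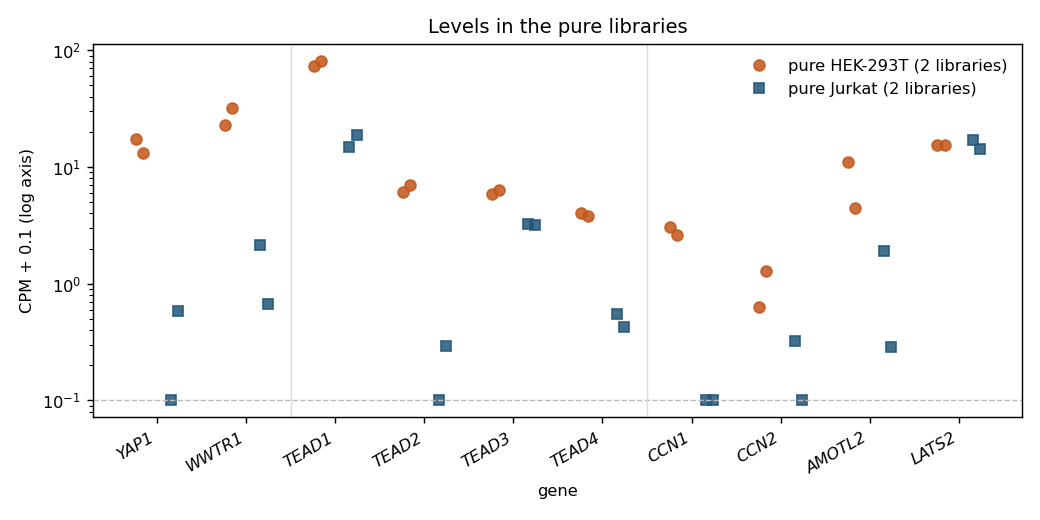
CPM + 0.1 of the 10 genes in the pure libraries on a log axis, with circles for the 2 HEK-293T libraries and squares for the 2 Jurkat libraries; the dashed line marks 0 CPM. The groups are apart for every gene except LATS2, and both Jurkat libraries lie on the dashed line for CCN1.

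YAP1 (chromosome 11, 102110447 to 102233424, GRCh38, plus strand) encodes YAP. It measured 17.1 and 13.2 CPM in the pure HEK libraries, and 0 and 0.484 CPM in the pure Jurkat libraries. The groups did not overlap. The Jurkat values rested on 3 counts in all, and the pooled ratio of HEK to Jurkat was 52.2, with a 95% counting interval from 17.7 to 254. The fitted log2 fold change, which depends on the prior count at such levels, was 5.47 ± 0.65 (SE, edgeR adjusted p = 0.0033).

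WWTR1 (chromosome 3, 149517235 to 149736714, minus strand) encodes TAZ, the paralog of YAP. Its levels were 23.0 and 32.0 CPM in HEK against 2.03 and 0.567 CPM in Jurkat, which rested on 12.6 expected counts. The groups did not overlap, although the Jurkat libraries differed more than 3-fold between themselves. The log2 fold change was 4.23 ± 0.50 (edgeR adjusted p = 0.0032). The gene overlaps the antisense transcript WWTR1-AS1 on the other strand, and although the libraries were made strand-specific, whether the counting made use of this is not given in the sources used here, so a part of antisense reads in its counts was not tested.

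Among the TEAD factors, which share one DNA-binding domain, TEAD1 (chromosome 11, 12674421 to 12944737, plus strand) was the factor with the highest TPM (length-scaled level) in both lines. TEAD1 measured 73.2 and 80.9 CPM in HEK and 14.8 and 18.5 CPM in Jurkat, so that Jurkat cells had a clear level of this factor. The log2 fold change was 1.98 ± 0.24 (edgeR adjusted p = 0.0033). TEAD2 (chromosome 19, 49340595 to 49362457, minus strand) was near the limit of counting in Jurkat. Its HEK libraries held 6.01 and 6.86 CPM and its Jurkat libraries 0 and 0.19 CPM, from 1.18 expected counts in all. The pooled ratio was 59.1 with a counting interval from 12.4 to 2775, and the fitted log2 fold change was 5.71 ± 0.67 (edgeR adjusted p = 0.0032).

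TEAD4 (chromosome 12, 2959330 to 3040676, plus strand) stood at 3.91 and 3.67 CPM in HEK and at 0.448 and 0.322 CPM in Jurkat, from 2 counts in each Jurkat library. The groups did not overlap, and the log2 fold change was 3.07 ± 0.47 (edgeR adjusted p = 0.0068). Without HEK replicate 1 or HEK replicate 2 the adjusted p was 0.083 or 0.080. TEAD3 (chromosome 6, 35473597 to 35497079, minus strand) was the factor closest between the lines. It held 5.82 and 6.26 CPM in HEK and 3.13 and 3.06 CPM in Jurkat. These groups did not overlap, and the log2 fold change of 0.74 ± 0.29 missed the threshold (edgeR adjusted p = 0.092). It passed with gene totals in place of TMM (adjusted p = 0.044) and when all 14 libraries shared the spread (adjusted p = 0.046), and not with DESeq2 (adjusted p = 0.37).

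The target genes did not follow one pattern. CCN1 and CCN2 encode secreted matricellular proteins and are the targets most often used to read YAP activity, while AMOTL2 encodes a junction protein that binds YAP and LATS2 encodes the kinase that inhibits it, so that both belong to negative feedback. The TEAD binding sequence GGAATG, or CATTCC on the other strand, was searched in RefSeq promoter windows on GRCh38.p14 that run from 250 bases before to 50 bases after a transcription start. These letters do not overlap another motif searched. The table gave 10 windows for 7 of the 10 members, YAP1, WWTR1, TEAD2, TEAD3, CCN2, AMOTL2 and LATS2. A match was present in 4 windows, 1 each for YAP1, CCN2, AMOTL2 and LATS2, and in 14.0% of all 35116 windows. The CCN2 window held 3 matches, beginning 169, 104 and 95 bases before the start, and at least 3 matches were present in 0.128% of all windows. AMOTL2 had a match 69 bases before the start of the downstream of its listed starts. LATS2 had 1 match beginning at base 10 of the transcript, and that of YAP1 began 162 bases before its start. The 250 bases before the start are shown for the CCN2 and AMOTL2 windows, since these are targets with a match there, in 5′ to 3′ direction of the gene with the matches in capitals. They lie at chr6:131951373-131951622 and chr3:134374448-134374697, both on the minus strand. A match is a description of the letters and no sign of binding.
CCN2: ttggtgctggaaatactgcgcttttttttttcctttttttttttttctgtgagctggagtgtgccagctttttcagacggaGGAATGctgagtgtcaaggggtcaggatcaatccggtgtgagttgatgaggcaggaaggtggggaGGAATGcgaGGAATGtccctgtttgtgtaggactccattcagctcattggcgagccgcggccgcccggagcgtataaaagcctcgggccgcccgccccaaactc
AMOTL2: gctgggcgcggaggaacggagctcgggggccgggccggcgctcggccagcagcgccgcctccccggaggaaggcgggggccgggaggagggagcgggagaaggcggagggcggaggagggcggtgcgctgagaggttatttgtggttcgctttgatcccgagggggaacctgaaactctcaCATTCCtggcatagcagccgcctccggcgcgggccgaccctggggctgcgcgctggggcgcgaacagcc

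CCN1 (chromosome 1, 85580761 to 85584589, plus strand) measured 2.96 and 2.51 CPM in HEK, from 66 counts in all, and had no count in either Jurkat library. Against a limit of 3 counts over both Jurkat libraries, HEK was at least 9.54-fold higher. The fitted log2 fold change of 7.53 ± 1.07 (edgeR adjusted p = 0.0091) depends on the prior count and is no bound. Without HEK replicate 1 or 2 the adjusted p was 0.081 or 0.069. CCN2 (chromosome 6, 131948176 to 131951372, minus strand) was low in HEK as well, at 0.529 and 1.19 CPM from 5 and 18 counts. In Jurkat it held 1 count in the first library (0.224 CPM) and 0 in the second. The pooled ratio was 9.97 with a counting interval from 1.62 to 411. The gene overlaps LINC01013 on the other strand.

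AMOTL2 (chromosome 3, 134355347 to 134375479, minus strand) differed between libraries of the same line. It measured 10.9 and 4.37 CPM in HEK and 1.79 and 0.185 CPM in Jurkat. The groups did not overlap, but the libraries of each line differed by more than 2-fold, and the log2 fold change of 2.86 ± 0.92 missed the threshold (edgeR adjusted p = 0.057). It passed with DESeq2 (adjusted p = 0.019), with all 14 libraries in the fit (0.014), with gene totals (0.044) and without Jurkat replicate 1 (0.043). LATS2 (chromosome 13, 20973036 to 21061586, minus strand) was the member whose groups overlapped. It stood at 15.34 and 15.31 CPM in HEK and at 16.8 and 14.2 CPM in Jurkat, with a log2 fold change of -0.24 ± 0.22 (edgeR adjusted p = 0.41). Its pooled ratio was 1.00, with a counting interval from 0.833 to 1.21. LATS2 overlaps the antisense transcript LATS2-AS1, to which the same limit applies.

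The direction for LATS2 depended on the scale. With gene totals in place of TMM its log2 fold change was -0.01, and scaled to spike-ins it was 3.31 (adjusted p = 2.1e-08), beside a median over all genes of 0.29 and 3.61 under these scalings. Set against the median of all genes, LATS2 was therefore slightly below it under each scaling. On the spike-in scale, where each library stands for 1000000 cells, pure HEK libraries held 10.03 times the gene counts of pure Jurkat libraries per ERCC count. The gene counts per ERCC count were 147 and 97.3 in pure HEK and 12.1 and 12.3 in pure Jurkat. At 80% HEK they were 46.6 and 123, so the ratios on this scale carry a wide replicate spread. LATS2 held 2.26 and 1.49 counts per 1000 ERCC counts in the HEK libraries and 0.203 and 0.175 in the Jurkat libraries, a ratio of means of 9.94. TEAD3 had a ratio of 19.4 and TEAD1 of 45.9 on this scale. With 2 libraries against 2 an exact permutation test cannot go below a two-sided p of 0.33, and none was run.

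Levels were compared between genes only as TPM, which divides counts by transcript length before scaling. The cDNA was primed with oligo-dT, and whether this division fits such libraries was not tested. In pure HEK, TEAD1 was highest at 11.2 TPM ± 1.03 (SD, n = 2), followed by WWTR1 at 6.56 ± 1.47 and YAP1 at 3.30 ± 1.15. YAP1 overlapped TEAD2 (3.03 ± 0.31), TEAD2 overlapped TEAD4 (2.80 ± 0.05) and TEAD4 overlapped LATS2 (2.77 ± 0.02) in their ranges over libraries. TEAD3 (2.22 ± 0.14) and CCN1 (1.43 ± 0.03) did not overlap each other, but both neighboured AMOTL2 (1.76 ± 1.05), whose range covered them. CCN2 was lowest at 0.37 ± 0.21 TPM. In pure Jurkat the order was led by TEAD1 (3.17 ± 0.85) and LATS2 (2.99 ± 0.40), whose ranges overlapped, and then TEAD3 (1.21 ± 0.04). WWTR1 followed at 0.62 ± 0.49 and TEAD4 at 0.30 ± 0.08, which overlapped, and the means of the other 5 members were below 0.25 TPM.

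The composition of the TEAD family was taken as each factor's share of the family's TPM. The family summed to 18.3 and 20.3 TPM in pure HEK and to 5.37 and 4.09 TPM in pure Jurkat. TEAD1 made up 57.5% and 59.0% of it in HEK and 70.2% and 62.7% in Jurkat. The share of TEAD2 was 15.4% and 16.0% in HEK against 0% and 2.43% in Jurkat, and that of TEAD4 was 15.5% and 13.6% against 6.61% and 5.95%. TEAD3 took 11.6% and 11.4% in HEK and 23.1% and 28.9% in Jurkat. The Jurkat family thus consisted of TEAD1 and TEAD3 for more than 9 in 10 of its TPM. In the mixtures the family sum ran from 8.92 TPM at 20% HEK to 19.2 TPM at 80% HEK, and the TEAD1 share from 33.7% in replicate 2 at 50% HEK to 64.5% in replicate 2 at 20% HEK.

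**Figure D2:**
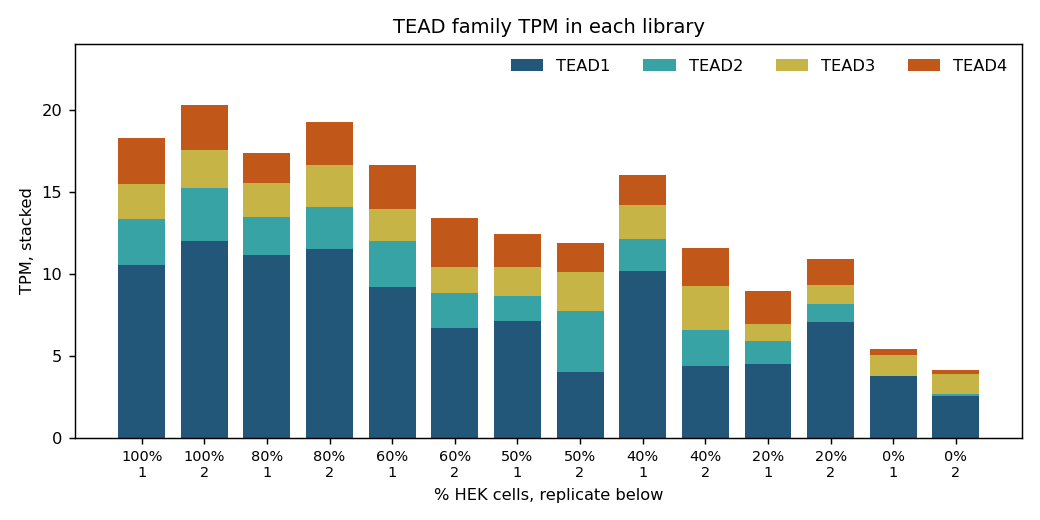
TPM of TEAD1, TEAD2, TEAD3 and TEAD4 stacked for each of the 14 libraries, ordered by the percentage of HEK cells with the replicate number below. The sum is 18.3 and 20.3 TPM in pure HEK and 5.37 and 4.09 TPM in pure Jurkat, and TEAD2 is nearly absent from the Jurkat bars.

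The ratio of WWTR1 to YAP1 in TPM was 1.34 and 3.05 in the pure HEK libraries. Over the 10 mixed libraries it lay between 1.20 and 3.98, so WWTR1 was above YAP1 in all 12 libraries that held HEK cells. No ratio was formed for pure Jurkat, where YAP1 had at most 3 counts. The spread between the pure HEK libraries covered much of this range.

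The genes upstream of YAP and TAZ were measured from lists chosen by function, with earlier results of these data known. Of 14 Hippo core genes, all tested, 3 were higher in HEK and 5 higher in Jurkat, beside 24.2% and 19.0% of all genes, with a median log2 fold change of -0.14. The share higher in HEK was near that of all genes. WWC2 and WWC1, which encode KIBRA-family scaffolds that promote LATS activity, were at 80.6 CPM ± 2.47 and 10.6 ± 0.93 (SD, n = 2) in HEK and at 2.55 ± 0.19 and 1.12 ± 0.01 in Jurkat. Their paralog WWC3 went the other way, from 0.515 ± 0.17 CPM in HEK to 7.58 ± 0.91 in Jurkat. The log2 fold changes were 4.75 ± 0.25 for WWC2, 2.99 ± 0.32 for WWC1 and -4.12 ± 0.40 for WWC3 (edgeR adjusted p = 0.00064, 0.0024 and 0.0018).

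The kinases TAOK3 and MAP4K4, which act above or beside STK3 and STK4, were higher in Jurkat. TAOK3 measured 117 and 84.1 CPM in HEK against 710 and 825 CPM in Jurkat (log2 fold change -3.16 ± 0.27, edgeR adjusted p = 0.0013). MAP4K4 measured 292 and 255 CPM against 2169.7 and 1252 CPM (-2.87 ± 0.33, edgeR adjusted p = 0.0030). STK4, a core kinase of the cascade, was at 270 and 249 CPM in HEK and at 441 and 438 CPM in Jurkat (-0.99 ± 0.19, edgeR adjusted p = 0.013). The fifth gene higher in Jurkat was MOB1B, a coactivator of the LATS kinases, named after its value was seen (-1.43 ± 0.28, edgeR adjusted p = 0.013). SAV1, the scaffold of STK3 and STK4, was higher in HEK (1.25 ± 0.24, edgeR adjusted p = 0.013). STK3 (-0.08 ± 0.50), LATS1 (0.20 ± 0.26), MOB1A (-1.18 ± 0.44) and NF2 (0.25 ± 0.34) did not pass the test. Scaled to spike-ins, 11 of the 14 were higher in HEK and 0 in Jurkat. On this scale 14616 of all 15794 genes were higher in HEK and 509 in Jurkat, so these counts do not set the list apart.

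Of 10 junction and polarity regulators, 9 were tested, with 3 higher in HEK, 1 higher in Jurkat and a median log2 fold change of 0.68. Against the 24.2% and 19.0% of all genes, these counts do not set the list apart. AMOT, an angiomotin that binds YAP at junctions, measured 370 and 383 CPM in HEK and 13.0 and 15.8 CPM in Jurkat (4.48 ± 0.24, edgeR adjusted p = 0.00064). Its paralog AMOTL1 was at 40.5 and 36.9 CPM in HEK and at 38.7 and 72.7 CPM in Jurkat, which overlapped (-0.76 ± 0.35, edgeR adjusted p = 0.14). The phosphatase gene PTPN14, which also stands among the targets, was at 54.9 CPM ± 4.51 in HEK and 2.85 ± 1.98 in Jurkat (4.10 ± 0.48, edgeR adjusted p = 0.0031). The protocadherins FAT4 and FAT1 went in opposite directions. FAT4 held 3.70 and 2.57 CPM in HEK and no count in Jurkat, at least 10.7-fold higher, while FAT1 held 8.46 and 8.58 CPM in HEK and 30.4 and 31.8 CPM in Jurkat (-2.09 ± 0.21, edgeR adjusted p = 0.0021). Scaled to spike-ins, 9 were higher in HEK and 0 in Jurkat, beside 14616 and 509 of all 15794 genes on this scale.

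The VGLL genes encode cofactors that bind TEAD in place of YAP and TAZ. Of 4, VGLL3 and VGLL4 were tested, with 1 higher in HEK and 0 in Jurkat, beside 24.2% and 19.0% of all genes. VGLL3 was higher in HEK at 6.03 and 6.86 CPM against 1.12 and 0.351 CPM (3.02 ± 0.54, edgeR adjusted p = 0.010). VGLL4, which acts against YAP, was at 54.3 and 41.9 CPM in HEK and 38.6 and 34.2 CPM in Jurkat and did not pass (0.17 ± 0.23, edgeR adjusted p = 0.58).

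Of 18 other YAP and TAZ targets, 10 had enough counts to be tested. Of these, 9 were higher in HEK and 0 higher in Jurkat, beside 24.2% and 19.0% of all genes. Their median log2 fold change was 3.01, beside 0.07 for all genes. A gene passes the filter on low counts when 1 line alone has enough counts, so the share among those tested is not a share of all 18. CCDC80, a matrix protein gene, measured 32.2 and 35.1 CPM in HEK and 0 and 0.322 CPM in Jurkat, from 2 counts, a pooled ratio of 181 with a counting interval from 50.0 to 1499. FOXF2, a forkhead factor of mesenchyme, measured 15.0 and 15.2 CPM against 0.224 and 0 CPM, from 1 count, a pooled ratio of 161 with an interval from 28.8 to 6389. CRIM1 was at 36.2 and 29.2 CPM against 2.46 and 2.74 CPM (3.41 ± 0.27, edgeR adjusted p = 0.0011). The widely used targets ANKRD1, AXL and F3 were too low to be tested. ANKRD1 held 0.317 and 1.39 CPM in HEK and 0 and 0.484 CPM in Jurkat, which overlapped. AXL, which encodes a receptor tyrosine kinase, rested on 3 and 4 counts in the lines. F3, the tissue factor gene, held 0.952 and 1.12 CPM in HEK and 0.224 and 0.322 CPM in Jurkat. NT5E, which encodes the ectonucleotidase CD73 and is named after its values were seen, was also untested and lay the other way. It held 0.106 and 0.594 CPM in HEK and 1.34 and 1.13 CPM in Jurkat. The pooled ratio of HEK to Jurkat was 0.334, with a counting interval from 0.131 to 0.824 that leaves out the spread between libraries.

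**Figure D3:**
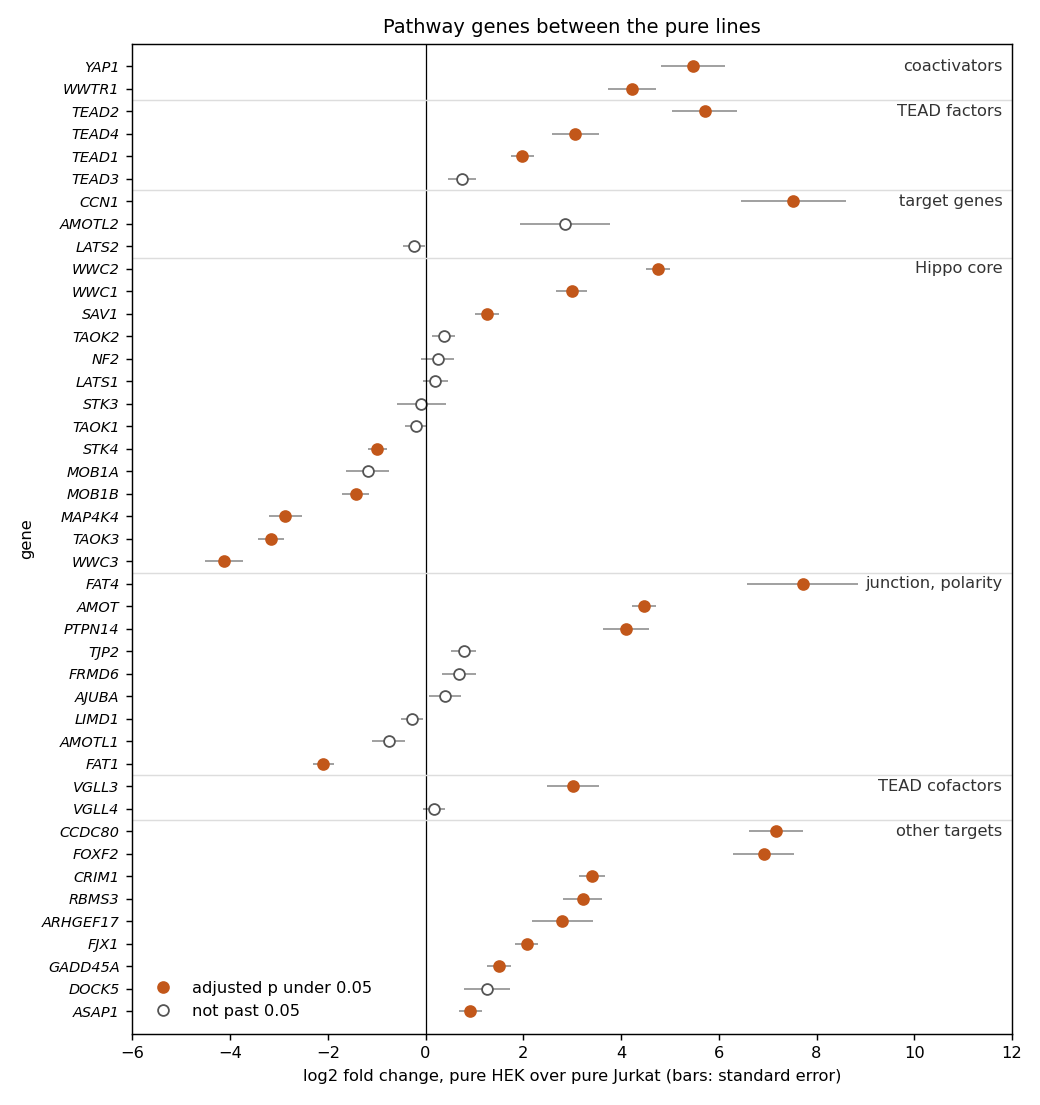
Log2 fold change of pure HEK over pure Jurkat for each tested gene of the lists, with the standard error as bars, grouped by role; filled points passed an adjusted p of 0.05 in edgeR and open points did not. The coactivators lie at 5.47 and 4.23, whereas the Hippo core genes run from -4.12 to 4.75.

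The mixtures gave 10 further libraries in which to measure the members against the percentage of HEK cells. YAP1 rose with this percentage, and the other 9 members did not pass the test. The slope was fitted without the pure libraries and is given as the log2 difference of 80% over 20% HEK cells. Among all 18516 genes tested, 0.643% rose and 4.82% fell, and of the 10 members 1 rose and 0 fell. At an unadjusted p of 0.05, 5 members rose, beside 7.27% of all genes, and 0 fell. DESeq2 called 1 member rising and 0 falling, beside 271 rising and 1208 falling among all 18516 genes. The slope was positive in 9 of 10 members, with a median of 0.82 beside 0.03 for all genes. By the RNA shares fitted below, a gene made only in HEK would hold 63.8% of its pure HEK level at 20% HEK. At 80% HEK it would hold 96.0%. The rise to be found was therefore small, and a gene that did not pass was not shown to stay level.

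For YAP1, both libraries with 20% HEK held 8.12 CPM. Those with 40% held 9.50 and 11.5 CPM, those with 50% held 10.7 and 15.0 CPM, those with 60% held 16.2 and 24.4 CPM, and those with 80% held 15.7 and 17.5 CPM. The libraries at 20% and 40% lay below those at 60% and 80%, without overlap, but HEK percentage and file-name group were largely aligned over these mixtures. The fitted difference was 1.19 ± 0.28 (SE, edgeR adjusted p = 0.026). It was lost with the group of file names as a term (1.51, adjusted p = 0.056), without replicate 1 or 2 at 20% HEK (adjusted p = 0.13 and 0.12) and without replicate 2 at 80% (0.060). Within the file-name groups alone it was 1.90 in 6 libraries (edgeR adjusted p = 0.14) and 0.67 in 4 libraries (0.34). The 6 libraries ran from 20% to 60% HEK and the 4 from 50% to 80%. Both values are therefore extrapolated to the difference of 80% over 20%.

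TEAD1 ran from 24.8 and 41.9 CPM at 20% HEK over 61.9 and 31.3 CPM at 40%, 48.0 and 27.3 CPM at 50%, 52.8 and 49.2 CPM at 60%, to 78.1 and 85.7 CPM at 80%. The libraries at 80% were above all other mixed libraries, but those at 20%, 40% and 50% overlapped one another, and the slope of 1.17 ± 0.40 did not pass (edgeR adjusted p = 0.13). Within the 4 mixed libraries of the second file-name group it was 3.26 (edgeR adjusted p = 0.032), and within the 6 of the first it was 0.91 (0.75). Both are extrapolated in the same way. WWTR1 lay between 18.7 and 41.8 CPM, with 37.8 and 37.0 CPM at 50% above the 23.4 and 22.7 CPM at 60%, and a slope of 0.67 ± 0.34 (edgeR adjusted p = 0.32).

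Among the other factors, TEAD2 ranged from 2.40 to 8.42 CPM (slope 0.90 ± 0.38), TEAD3 from 2.76 to 7.65 CPM (0.74 ± 0.36) and TEAD4 from 2.20 to 4.39 CPM (0.39 ± 0.31). In the targets, CCN1 ranged from 1.42 to 4.25 CPM (0.98 ± 0.37) and CCN2 from 0.159 to 1.63 CPM (1.68 ± 0.67). CCN1 was thus counted in every mixed library, with 20 counts or more, while it had no count in pure Jurkat. LATS2 stayed between 11.5 and 18.2 CPM (0.32 ± 0.23). AMOTL2 had values from 1.55 to 8.62 CPM, with its highest at 50% HEK and its lowest at 40%, and a slope of -0.04 ± 0.53. With the fitted share of HEK RNA in place of the cell percentage, CCN2 also passed (2.01, edgeR adjusted p = 0.039). Scaled to spike-ins all 10 members rose, beside 13654 of all 18516 genes and a median over all genes of 1.83.

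Among the other lists, 0 of 14 Hippo core genes rose and 3 fell, beside 0.643% and 4.82% of all genes. Those that fell were WWC3 (-3.13 ± 0.63), MAP4K4 (-1.73 ± 0.37) and TAOK3 (-1.48 ± 0.29). None of the 9 junction and polarity regulators or the 3 TEAD cofactors tested passed, and of 16 other targets 1 rose, RBMS3, named after its value was seen (1.07 ± 0.26, edgeR adjusted p = 0.032). All 10 T cell markers fell with the HEK percentage, and 0 of the 5 adherent markers passed. At an unadjusted p of 0.05, 3 Hippo core genes rose and 3 fell, and 3 other targets rose and 1 fell. In addition, 1 junction gene fell, and 1 TEAD cofactor gene and 1 adherent marker rose. At this p 7.27% of all genes rose, and the share of all genes that fell was not counted. DESeq2 called 3 Hippo core genes falling, 1 other target rising and 0 in the other 3 of these lists. Among all 18516 genes it called 271 rising and 1208 falling.

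The last comparison set each mixed library against what addition of the pure lines would give. The share of RNA from HEK cells was fitted for each library from 12286 genes outside all lists. Among 80% HEK cells the share was 95.8% and 96.2%. For 60% HEK it came to 92.3% and 91.7%, for 50% to 85.1% and 90.1%, for 40% to 78.4% and 84.6%, and for 20% to 63.2% and 64.4%. From the spike-in ratio of the pure libraries, the share at 20% HEK would have been 71.5%, above both fitted values. A gene made only in HEK cells would by addition keep about these shares of its pure HEK level in CPM. In the mean of 2 libraries, YAP1 at 20% HEK was at 53.6% of its pure level where 64.4% was expected, and CCN1 was at 63.8% where 63.8% was expected. TEAD1 was at 43.3% where 71.6% was expected. At 80% HEK, YAP1 was at 110% where 96.1% was expected, CCN1 at 129% where 96.0% was, and TEAD1 at 106% where 96.9% was.

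No member was above or below the expectation in all 10 mixed libraries, beside 6.05% of all genes, and for 6 of 10 members the mean was below it. The log2 of observed over expected CPM, with 0.5 added to each, was 0.03 ± 0.35 (SD, n = 10) for YAP1 and 0.26 ± 0.37 for WWTR1, which was above 0 in 7 libraries. TEAD1 was at -0.53 ± 0.53 and below 0 in 8 libraries, the exceptions being both libraries at 80% HEK. TEAD2 was at -0.28 ± 0.39 and also below 0 in 8. TEAD3 (-0.11 ± 0.37), TEAD4 (-0.10 ± 0.23), CCN1 (0.18 ± 0.35), CCN2 (0.05 ± 0.42) and LATS2 (-0.07 ± 0.24) lay on both sides. For AMOTL2 the mean was -0.58 ± 0.64, and it rested on which pure HEK library set the expectation, at 0.13 without HEK replicate 1 and -1.04, with all 10 libraries below, without HEK replicate 2. The 10 values of a gene share the pure levels they are divided by, and no test was made.

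**Figure D4:**
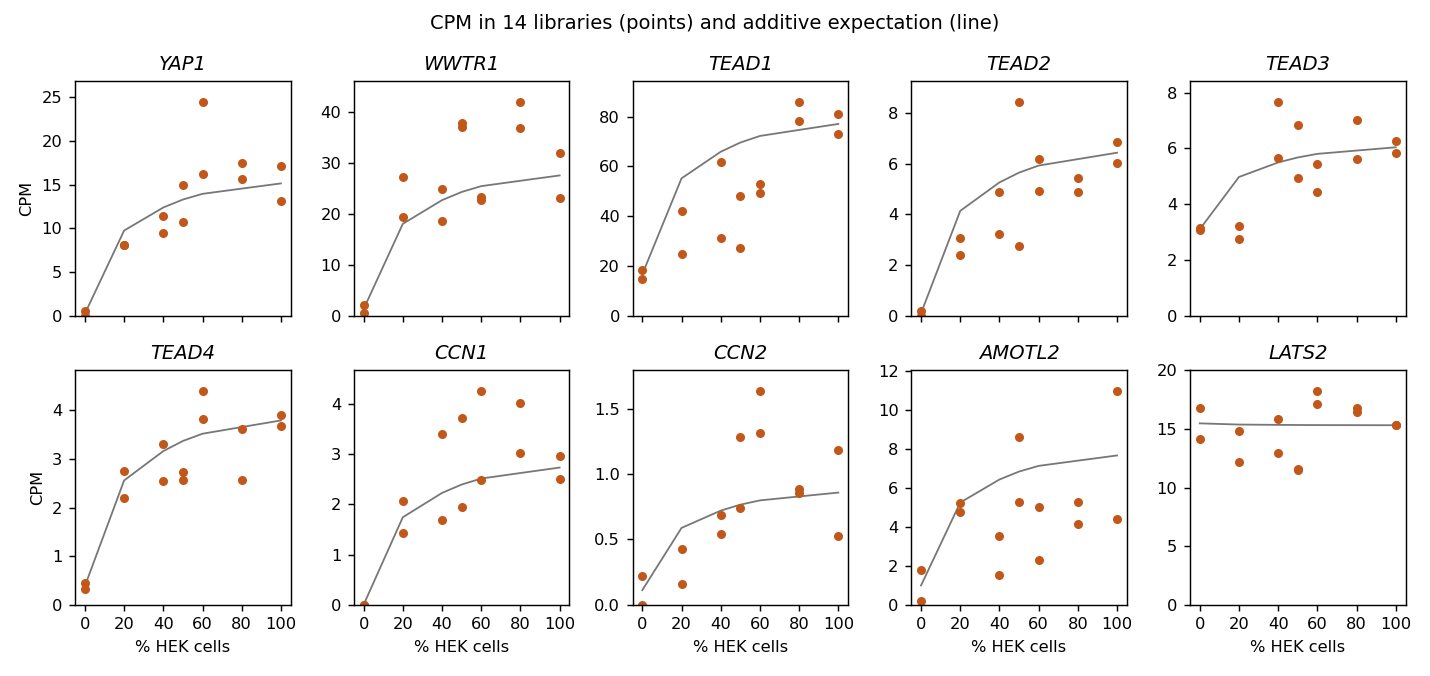
CPM of each member in the 14 libraries (points, 2 per condition) against the percentage of HEK cells, with the level expected from adding the pure lines (line); each panel starts at 0 CPM and has its own scale. TEAD1 lies below the line in 8 of the 10 mixed libraries, and LATS2 has a nearly flat line.

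The genes most like each member in CPM over all 14 libraries were found among 11462 other genes with a mean of at least 5 CPM. This likeness is a description only, since all points share the HEK percentage, and the members' own r with the fitted HEK RNA share ran from 0.05 for LATS2 to 0.91 for TEAD4. For YAP1 the most alike were FBLIM1 (r = 0.97), ACOT9 (0.95) and MKS1 (0.94), and for WWTR1 they were ELOVL6, COL27A1 and PYGO1 (all 0.95). For TEAD1 they were KCNAB1 (0.96), CAMK2D and RNF207 (both 0.95). TEAD2 had GAA, RAP2C and RTL8C (all 0.98), TEAD3 had SGMS1 (0.91), RPL22P1 (0.90, a pseudogene whose reads may be divided with its parent gene) and FAM241A (0.89), and TEAD4 had SRSF12, SLC46A1 (both 0.97) and RGS17 (0.95). For CCN1 they were SLC7A3 (0.96), KCNJ8 and RAMP1 (both 0.95), and for CCN2 TPTEP2-CSNK1E, SSR1 and DCTN4 (all 0.91). AMOTL2 was most like EXPH5 (0.96), HOXA3 and TRIM24 (both 0.90). LATS2 had the weakest likeness, with PTER (0.84), MARCHF6 (0.81) and SPPL2A (0.80). No member was among another's most alike genes, as members were left out of the search.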

How the data were processed

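mRNA was captured with oligo-dT beads, ERCC spike-ins were added, and barcoded cDNA was pooled by Actb qPCR. The authors aligned reads with STAR 2.6.1b to GRCh38 and deposited, for each library, RSEM 1.3.1 expected counts, not normalized, and TPM. The annotation release is not given in the sources used here, and 57754 of 58440 identifiers matched GENCODE release 44. A table of all libraries repeats the expected counts and was not used.

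Here, expected counts were rounded for tests, CPM used the total of all genes, leaving spike-ins out, and the deposited TPM were rescaled to sum over genes. Pure lines (2 against 2) and the slope on HEK percentage (10 mixed libraries) were tested by edgeR 4.0.16 after filterByExpr and TMM, using glmQLFit, glmQLFTest and Benjamini-Hochberg adjustment at 0.05 over all genes. DESeq2 1.42.0 was an alternative. HEK RNA shares were fitted by least squares on log2(CPM + 1) over genes of at least 5 CPM in a pure line. The counting intervals of pooled ratios are exact conditional (Clopper-Pearson) 95% intervals, whatever the counts in Jurkat. Intervals and limits cover counting error only. The fits were tested on simulated data. R 4.3.3, scipy 1.17.1 and pandas 2.3.3 were used.

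The members and lists were chosen with earlier results of these data known. Named were all members, 12 pathway genes by name, and up to 3 genes per list and direction with the largest fold change among those past the threshold. Alternatives covered scaling, tool, filter, shared spread, file-name group, Bonferroni adjustment, pseudocount, TPM and each library left out.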

Additional observations from a re-analysis of the deposited data

How the results depend on the processing

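In the pure lines, 6 members were higher in HEK, with between 4 and 7 when each library was left out (the calls for TEAD4 and CCN1 were lost without either HEK library), 7 with DESeq2 or no filter, 8 with gene totals, 9 with all 14 libraries or spike-ins, and 0 with Bonferroni adjustment. The genes higher in HEK and in Jurkat numbered 3825 and 3002, 14616 and 509 with spike-ins, 22 and 43 with Bonferroni, 1822 and 1372 without HEK replicate 1, and 1769 and 1362 without HEK replicate 2. LATS2 reversed to 3.31 with spike-ins.

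In the mixtures, 1 member rose, against 10 with spike-ins, 2 with the fitted RNA share, 0 with the file-name group as a term, 0 in the first file-name group alone and between 0 and 1 with each library left out. All genes rising numbered 119, against 271 with DESeq2, 13654 with spike-ins, 71 with no filter, 37 with the file-name group, 0 and 434 within the groups, 197 with the RNA share, and 23 to 220 with a library left out. Genes falling numbered 893, against 225 with spike-ins, 443 with the file-name group, 201 and 175 within the groups and 557 without replicate 1 at 20% HEK. In the second group alone TEAD2 reversed to -0.88 and CCN2 to -1.03, both extrapolated from 4 libraries at 50% to 80% HEK. AMOTL2, near 0, reversed to 0.0096 with gene totals and 1.89 with spike-ins, and ran from -0.18 to 0.14 with a library left out, above 0 in 3 of these fits. Between 0 and 1 members lay on one side of the additive expectation with a pure library left out. Of the other values under another setting, 181 kept their direction and their side of the threshold, or moved by less than the replicate spread. Of the rest, 24 moved by more, 5 reversed, 18 came to pass the threshold and 9 lost it. With a library left out 204 of the other values did not change in these ways, 3 reversed, and others moved or crossed the threshold. The within-group and RNA share fits were chosen after seeing the data. The causes were not tested. YAP1, TEAD2, CCN1 and CCN2 had 3 counts or fewer over both Jurkat libraries, so their folds are imprecise.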
